A study of Mus musculus with 4 samples.

Results

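The genes described are 7 insulin-like growth factor (IGF) binding protein genes, Igfbp1 to Igfbp7, with the IGF receptor gene Igf1r, the insulin receptor gene Insr and the receptor adaptor gene Irs1. They were chosen by symbol, and all 10 were found among the 21878 rows of each deposited table. RNA sequencing was done on 4 libraries of cultured mouse liver cells that had been brought to a progenitor-like state in transition and expansion media. HepLPC (2 libraries) are cells grown from hepatocytes and NPC_LPC (2 libraries) are cells grown from the non-parenchymal fraction. The strain was C57BL/6 throughout, at an age of 6 to 8 weeks. The treatment protocol lists tdTomato mice given AAV8-TBG-Cre, a virus whose Cre is driven by a hepatocyte promoter, for hepatocytes, and AlbCreERT/R26GFP mice, whose inducible Cre is driven by the albumin promoter, for non-parenchymal cells. If the mice were used as listed, line and virus follow the group and cannot be told apart from cell origin. Groups follow the library titles, because the HepLPC cell type label names hepatocytes together with non-parenchymal cells.

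IGF1 and IGF2 are secreted growth factors that signal through IGF1R, and insulin signals through the related INSR. Both receptors phosphorylate adaptors such as IRS1, which recruit PI3-kinase and so activate AKT. IGFBP1 to IGFBP6 bind the IGFs with high affinity in blood and tissue fluid, and they lengthen the life of the growth factors or withhold them from the receptor. IGFBP7 binds IGFs weakly and is also known as an extracellular matrix protein. The adult liver is the main source of circulating IGF1, and IGFBP1 is a classical hepatocyte product that insulin represses.

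The libraries held 17575998 to 20625957 counts, and a gene had to pass a filter on low counts to be tested. Alb, the albumin gene of mature hepatocytes, had 2.28 CPM (counts set on one library size with TMM factors) in HepLPC replicate 1 and at most 0.149 CPM in the other libraries. Hnf4a, a hepatocyte transcription factor, had 235 and 249 CPM in HepLPC replicates 1 and 2, against 27.4 and 49.8 CPM in NPC_LPC replicates 1 and 2. The 8 hepatocyte markers summed to 411 to 471 CPM in HepLPC and 142 to 372 CPM in NPC_LPC. Of the 4 tested, 3 had log2 fold changes above 0 (Ttr, Apoa1 and Hnf4a) and 1 below, Ass1 at -0.18. Ttr had at most 1 count in an NPC_LPC library and Apoa1 had none. Both could enter the test only through HepLPC, so their direction was a condition of being tested. Ass1 overlapped between groups, with 227 and 159 CPM in HepLPC, against 344 and 92.3 CPM in NPC_LPC. Cyp3a11 and Cyp2e1 had no count, and Cps1 had at most 4 counts in a library. Markers of non-parenchymal cell types were low with some exceptions. The 6 endothelial markers summed to 5.97 to 7.44 CPM in HepLPC and 2.30 to 3.61 CPM in NPC_LPC. The 9 stellate cell and fibroblast markers summed to 9.58 to 14.7 CPM in HepLPC and 5.76 to 16.7 CPM in NPC_LPC. The 8 Kupffer cell and leukocyte markers summed to 17.0 to 26.1 CPM in HepLPC and 21.6 to 82.3 CPM in NPC_LPC, most of it Cd68. The 5 mesothelial markers summed to 199 to 788 CPM in HepLPC and 232 to 579 CPM in NPC_LPC, nearly all of it Msln. The 7 cholangiocyte markers summed to 2214 to 4774 CPM in HepLPC and 4783 to 9504 CPM in NPC_LPC, and its members lay in opposite directions. Spp1 had 3024 and 904 CPM in HepLPC, against 8939 and 4201 CPM in NPC_LPC. Krt19 had 1434 and 885 CPM in HepLPC, against 111 and 275 CPM in NPC_LPC, and Krt7 had 103 and 165 CPM in HepLPC, against 1.43 and 17.2 CPM in NPC_LPC. Lrat, Clec4f and Cd3e had no count in any library.

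A different binding protein led in each origin. Per length, on the authors' FPKM scale, Igfbp4 was the most abundant of the 7 binding protein genes in both HepLPC libraries and Igfbp7 in both NPC_LPC libraries. Igfbp3 came after both in every library. Igfbp1, Igfbp2, Igfbp5 and Igfbp6 together were a small remainder. With 2 libraries against 2, no member passed edgeR's quasi-likelihood test at an adjusted p of 0.05 over the 12332 genes tested (0 of 8 tested members, where 0.43% of all tested genes passed). At an unadjusted p under 0.05 there were 4 of the 8, where 21.9% of all tested genes were under it. Of these, 3 had higher values in HepLPC (Igfbp2, Igfbp3 and Igfbp4), where 10.4% of all tested genes did. The other 1, Igfbp7, had lower values, where 11.5% of all tested genes did. Igfbp2 had no count in NPC_LPC and could enter the test only through HepLPC, so it lends no support to these counts. DESeq2 called Igfbp2, Igfbp3 and Igfbp4 higher and Igfbp7 lower at an adjusted p of 0.05, where it called 11.6% of the genes it tested, 5.35% of them as higher and 6.24% as lower.

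**Figure D1:**
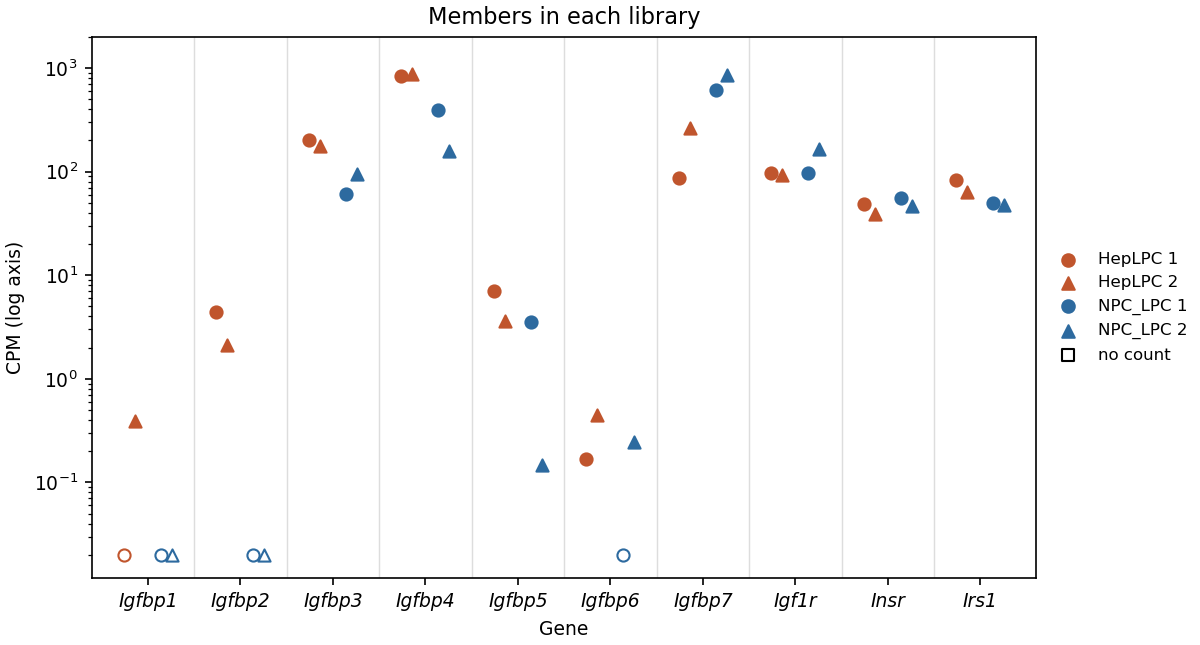
CPM of each member (log axis) in the 2 HepLPC and the 2 NPC_LPC libraries, 1 point per library, with open symbols at the bottom for libraries with no count. Igfbp4 reaches 832 and 867 CPM in HepLPC against 395 and 156 CPM in NPC_LPC, and Igfbp7 shows the opposite order.

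The letters before a RefSeq start of 4 binding protein genes are shown because these genes stand at the extremes of the data. They are Igfbp4 and Igfbp7, the leading members, and Igfbp1 and Igfbp3, neighbours on chromosome 11 with very different levels. Each line gives the 250 bases before the RefSeq start of transcription (GRCm38.p6, the assembly also called mm10), read 5′ to 3′ on the gene's own strand. Capitals mark the forkhead core (TTGTTT), the TATA box (TATAAA) or the GC box (GGGCGG), each searched on both strands, and no marked stretch overlaps another.
Igfbp4: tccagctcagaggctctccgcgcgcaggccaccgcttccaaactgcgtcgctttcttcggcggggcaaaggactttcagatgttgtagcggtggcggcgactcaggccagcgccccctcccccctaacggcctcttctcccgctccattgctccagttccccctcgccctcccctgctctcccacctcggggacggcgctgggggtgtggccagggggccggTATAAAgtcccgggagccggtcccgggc
Igfbp7: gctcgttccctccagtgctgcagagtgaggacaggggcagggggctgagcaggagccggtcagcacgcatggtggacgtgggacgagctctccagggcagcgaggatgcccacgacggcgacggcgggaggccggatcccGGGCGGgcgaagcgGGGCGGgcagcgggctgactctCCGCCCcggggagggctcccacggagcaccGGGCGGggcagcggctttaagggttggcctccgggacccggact
Igfbp1: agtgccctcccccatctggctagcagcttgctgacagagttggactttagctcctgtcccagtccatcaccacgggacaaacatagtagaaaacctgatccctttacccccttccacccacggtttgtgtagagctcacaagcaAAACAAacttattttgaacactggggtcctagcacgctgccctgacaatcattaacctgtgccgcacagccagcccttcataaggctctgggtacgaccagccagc
Igfbp3: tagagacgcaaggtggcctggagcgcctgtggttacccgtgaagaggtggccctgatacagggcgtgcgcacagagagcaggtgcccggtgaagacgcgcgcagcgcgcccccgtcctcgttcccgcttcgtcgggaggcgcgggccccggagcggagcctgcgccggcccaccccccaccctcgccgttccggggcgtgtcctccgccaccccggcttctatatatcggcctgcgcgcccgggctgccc

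The windows lie at chr11:99040994-99041243 on the plus strand for Igfbp4, chr5:77408046-77408295 on the minus strand for Igfbp7, chr11:7197537-7197786 on the plus strand for Igfbp1 and chr11:7213924-7214173 on the minus strand for Igfbp3. For Igfbp4 and Igfbp3 the start used lies inside the gene span given for them below, so these windows lie within the span. The Igfbp4 window held 1 TATA box, whose first base lies 28 bases before the start, and no GC box. The Igfbp7 window held 4 GC boxes and no TATA box. The Igfbp1 window held 1 forkhead core, whose first base lies 106 bases before the start, and the Irs1 window also held 1. As background, the human and rat Igfbp1 promoters hold an insulin response element bound by FOXO factors. Windows of the same length before all 32851 RefSeq starts held the forkhead core in 18.3%, the TATA box in 12.4% and the GC box in 32.7% of cases. The Igfbp1 window had 5 CpG dinucleotides and the windows of Igfbp3, Igfbp4 and Igfbp7 had 32, 22 and 26, where the median over all windows was 6. A match is a description of letters and no evidence of binding, and 9 of the 10 members had a window, with none for Insr.

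Igfbp4, which encodes a binding protein that mainly inhibits IGF action and is freed of its cargo by the protease PAPP-A, lies on chromosome 11 (GRCm38, 99040005 to 99052655, plus strand, 4 exons). It had 832 and 867 CPM in HepLPC replicates 1 and 2, against 395 and 156 CPM in NPC_LPC replicates 1 and 2. Both HepLPC libraries exceeded both NPC_LPC libraries, and the NPC_LPC libraries were far apart. The log2 fold change of HepLPC over NPC_LPC was 1.62 (SE 0.47, 95% interval 0.47 to 2.78), and edgeR gave an adjusted p of 0.141. DESeq2 gave 0.00775, and edgeR without NPC_LPC replicate 1 gave a log2 fold change of 2.46 and an adjusted p of 0.0288. Over all alternatives the adjusted p ran from 0.00775 to 0.301, and without NPC_LPC replicate 2 the log2 fold change was 1.10.

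Igfbp7 (chromosome 5, 77349240 to 77408045, minus strand, 6 exons) showed the opposite order. It had 85.9 and 265 CPM in HepLPC replicates 1 and 2, against 615 and 859.9 CPM in NPC_LPC replicates 1 and 2. Every HepLPC value lay below every NPC_LPC value, and within HepLPC replicate 2 was well above replicate 1. The mean was 4.20-fold higher in NPC_LPC. The log2 fold change of HepLPC over NPC_LPC was -2.07 (SE 0.56, 95% interval -3.47 to -0.67, edgeR adjusted p = 0.129, DESeq2 adjusted p = 0.0019). Over all alternatives the adjusted p reached 0.235. The log2 fold change was -1.46 without HepLPC replicate 1 and -3.10 without HepLPC replicate 2. In liver, Igfbp7 is also made by endothelial and stellate cells. Of their markers, Pecam1 had at most 0.0563 CPM and Pdgfrb at most 0.0555 CPM in any library, and Lrat had no count. Others were detected. Kdr had 6.78 and 5.46 CPM in HepLPC, against 1.87 and 3.07 CPM in NPC_LPC, and Reln had 8.77 and 5.41 CPM in HepLPC, against 0.494 and 1.14 CPM in NPC_LPC. Col1a1 had 4.05 and 1.80 CPM in HepLPC, against 2.74 and 11.8 CPM in NPC_LPC, and Acta2 had counts in NPC_LPC replicate 2 alone (2.28 CPM). The part of such cells in the result was not tested. In bulk samples, fewer cells of a type and less RNA per cell cannot be told apart. The end of Igfbp7 overlaps that of Polr2b, on the opposite strand, by 77 exon bases, and Polr2b was at 183 to 227 CPM in HepLPC and 161 to 166 CPM in NPC_LPC.

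The contrast between these genes could be read within a library, where scaling between libraries has no part. On the FPKM scale, Igfbp7 was 0.202 and 0.589 times the level of Igfbp4 in HepLPC replicates 1 and 2, against 2.98 and 10.5 times in NPC_LPC replicates 1 and 2. From counts, the log2 ratio of Igfbp7 to Igfbp4 averaged -2.49 ± 1.11 in HepLPC and 1.55 ± 1.29 in NPC_LPC (SD, n = 2 each), a difference of -4.04. The sign of the ratio thus separated the groups in all 4 libraries. An exact permutation test (two-sided) gave p = 0.333, the smallest that 2 against 2 allows, and the ratio was chosen after its values were seen.

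**Figure D2:**
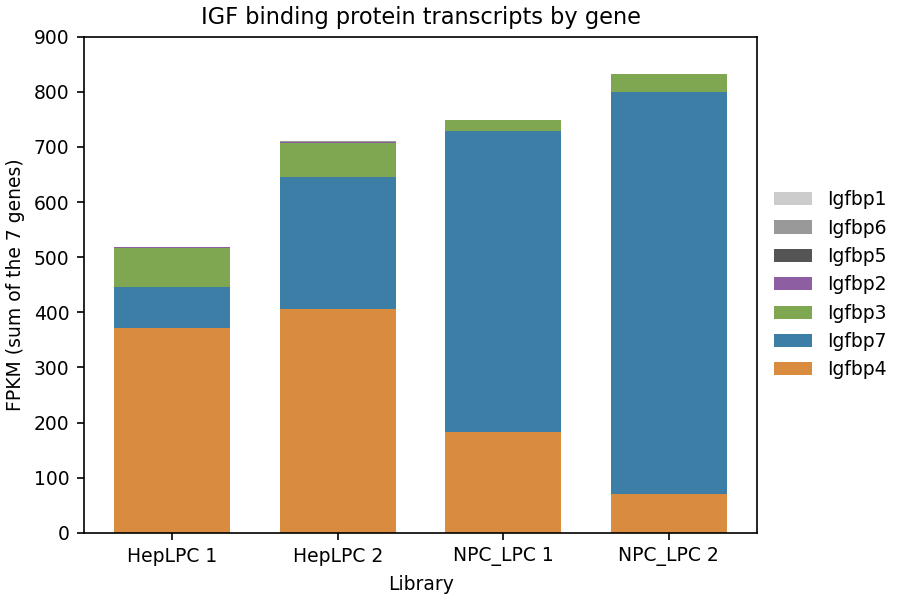
FPKM of the 7 IGF binding protein genes stacked in each library, HepLPC on the left and NPC_LPC on the right. Igfbp4 takes 71.6% and 57.2% of the stack in HepLPC, and Igfbp7 takes 72.8% and 87.7% in NPC_LPC.

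The plot of stacked FPKM shows both the sum and the makeup of the binding protein transcripts. The 7 genes summed to 519 and 711 FPKM in HepLPC replicates 1 and 2, against 749.9 and 833 FPKM in NPC_LPC replicates 1 and 2. Igfbp4 held 71.6% and 57.2% of that sum in HepLPC, against 24.4% and 8.39% in NPC_LPC. Igfbp7 held 14.4% and 33.7% in HepLPC, against 72.8% and 87.7% in NPC_LPC. For both genes the shares of the groups did not overlap, and by CPM the groups did not overlap in 56.4% of all tested genes. Igfbp3 held 13.3% and 8.72% in HepLPC, against 2.72% and 3.85% in NPC_LPC. These shares are of transcript level per length and say nothing of protein.

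Igfbp3, whose protein carries most circulating IGF in a complex with the acid-labile subunit, lies on chromosome 11 (7206086 to 7215498, minus strand, 5 exons). It had 203 and 178 CPM in HepLPC replicates 1 and 2, against 60.2 and 94.2 CPM in NPC_LPC replicates 1 and 2. The groups did not overlap, and the HepLPC libraries were close together. The mean was 2.47-fold higher in HepLPC (log2 fold change 1.30, SE 0.30, 95% interval 0.57 to 2.04), with an adjusted p of 0.099 from edgeR and 0.00371 from DESeq2, and up to 0.248 over the alternatives. In rat liver Igfbp3 is known as a product of non-parenchymal cells rather than of hepatocytes. Kupffer and endothelial markers beside it stood at the sums given above, and their part in the result was not tested.

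Igfbp1, the neighbour of Igfbp3, ends 3539 bases before it on the opposite strand (chromosome 11, 7197787 to 7202546, plus strand, 4 exons). It had 0 and 7 counts in HepLPC replicates 1 and 2, against 0 and 0 in NPC_LPC replicates 1 and 2, too few to be tested. A count of 0 allows up to 3 counts, or 0.149 to 0.167 CPM in the libraries concerned. So this hepatocyte product was at or near the detection limit in both kinds of culture, while its neighbour was readily detected.

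Igfbp2, a binding protein gene known for its expression in fetal liver, was detected in HepLPC and not in NPC_LPC. It lies on chromosome 1 (72824480 to 72852474, plus strand, 4 exons). It had 80 and 38 counts in HepLPC replicates 1 and 2, which is 4.44 and 2.14 CPM, against 0 and 0 counts in NPC_LPC replicates 1 and 2. Set against a floor of 3 counts per NPC_LPC library, Igfbp2 was at least 21.0-fold higher in HepLPC. Without HepLPC replicate 1 the bound was 13.7-fold. The edgeR adjusted p was 0.0763, or 0.0208 when genes with low counts were not filtered out, the DESeq2 adjusted p was 9.62e-05, and over the alternatives it reached 0.247. Igfbp2 could enter the test only through the HepLPC libraries, so its difference was a condition of its being tested.

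Igfbp5 lies 5590 bases beyond the end of Igfbp2 on the opposite strand (chromosome 1, 72858065 to 72874865, minus strand, 4 exons) and encodes a matrix-bound binding protein. It had 6.997 and 3.60 CPM in HepLPC replicates 1 and 2, against 3.51 and 0.149 CPM in NPC_LPC replicates 1 and 2. The lower HepLPC and the higher NPC_LPC library were nearly equal, and the last value rests on 3 counts. The log2 fold change was 1.54 with a wide error (SE 1.25, 95% interval -1.55 to 4.63, edgeR adjusted p = 0.506). With NPC_LPC replicate 1 left out it was 5.11, with NPC_LPC replicate 2 left out 0.59, and with HepLPC replicate 1 left out 0.99. The adjusted p ran from 0.0722 to 0.797 over the alternatives. Igfbp6, whose protein prefers IGF2 (chromosome 15, 102144186 to 102149512, plus strand), had 3 and 8 counts in HepLPC replicates 1 and 2, against 0 and 5 in NPC_LPC replicates 1 and 2, and was not tested.

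**Figure D3:**
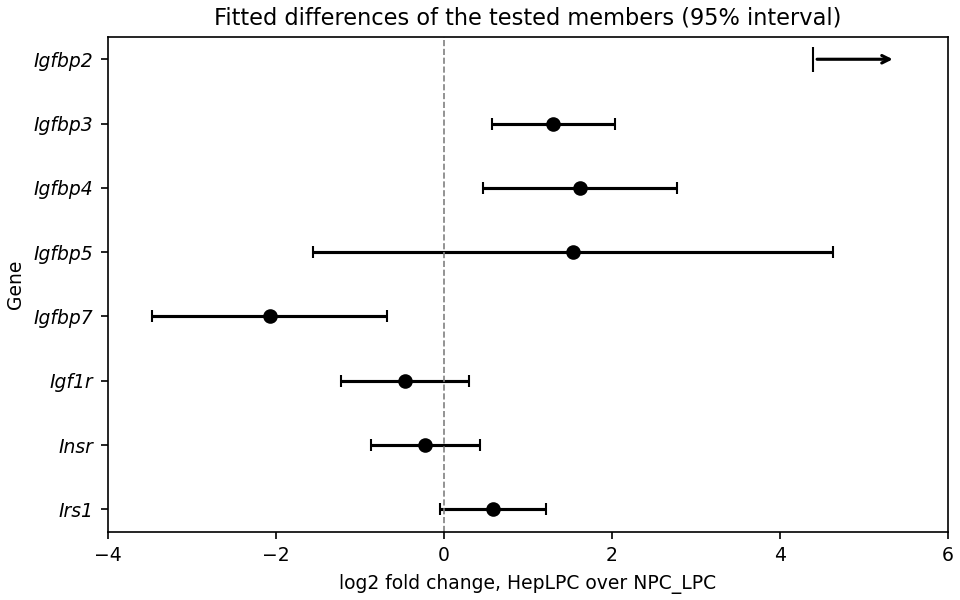
Log2 fold change of HepLPC over NPC_LPC for the 8 tested members, points with 95% intervals from the edgeR fit. Igfbp2 is drawn as a lower bound at 4.39 with an arrow, since it had no count in NPC_LPC, and the intervals of Igf1r, Insr, Irs1 and Igfbp5 include 0.

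Neither receptor gene passed the test. Igf1r (chromosome 7, 67952257 to 68233668, plus strand, 21 exons) had 96.6 and 92.5 CPM in HepLPC replicates 1 and 2, against 97.3 and 164 CPM in NPC_LPC replicates 1 and 2. Only NPC_LPC replicate 2 stood apart, and the other libraries lay close together. The log2 fold change was -0.47 (SE 0.31, 95% interval -1.23 to 0.30, edgeR adjusted p = 0.422). Insr (chromosome 8, 3150922 to 3279649, minus strand, 21 exons) had 48.8 and 39.3 CPM in HepLPC replicates 1 and 2, against 55.8 and 46.7 CPM in NPC_LPC replicates 1 and 2. Its groups overlapped, and the log2 fold change was -0.22 (SE 0.26, 95% interval -0.87 to 0.43, edgeR adjusted p = 0.657). These intervals do not show equality. They leave out the fitted log2 fold change of Igfbp7 (-2.07), but both overlap its 95% interval (-3.47 to -0.67). Per length, Igf1r was 1.28 and 1.63 times the FPKM of Insr in HepLPC, against 1.18 and 2.38 times in NPC_LPC.

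Irs1, the adaptor both receptors share, had 82.4 and 62.8 CPM in HepLPC replicates 1 and 2, against 49.4 and 47.3 CPM in NPC_LPC replicates 1 and 2 (chromosome 1, 82233105 to 82291439, minus strand, 2 exons). Both HepLPC libraries were above both NPC_LPC libraries. The log2 fold change was 0.59 (SE 0.25, 95% interval -0.04 to 1.21), but neither edgeR nor DESeq2 passed it (edgeR adjusted p = 0.252). The last exon of Irs1 holds, on the opposite strand, the annotated gene Gm9747 over 2822 bases. No row was found under the symbol Gm9747, and the strand setting of the counting is not given in the sources used here.

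The members were then ordered by mean FPKM. In HepLPC the order ran from Igfbp4 (389 ± 24.6 FPKM) through Igfbp7 (157 ± 116) and Igfbp3 (65.5 ± 4.99) to Irs1 (6.08 ± 1.12), Igf1r (5.15 ± 0.0972), Insr (3.59 ± 0.536) and Igfbp2 (2.12 ± 0.887), each with n = 2 and SD. In NPC_LPC it ran from Igfbp7 (638 ± 131 FPKM) through Igfbp4 (126 ± 80.0) and Igfbp3 (26.2 ± 8.21) to Igf1r (7.01 ± 2.64), Irs1 (4.08 ± 0.0309) and Insr (4.04 ± 0.438). Igfbp7 and Igfbp3, and Irs1 and Igf1r, differed by less than the larger SD of the pair in HepLPC, as did Irs1 and Insr in NPC_LPC. The remaining binding proteins, below 0.6 FPKM in every library apart from Igfbp2, could not be ordered.

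Over the 8 tested members the median log2 fold change was 0.94, against 0.00 over all tested genes, and it is the same with Igfbp2 at its lower bound. In 5 of them HepLPC was above NPC_LPC without overlap and in 2 below, where 27.9% and 28.6% of all tested genes were. The 5 include Igfbp2, which could enter the test only through HepLPC. They also include Igfbp5, with 3.60 CPM at the lowest in HepLPC and 3.51 CPM at the highest in NPC_LPC. The 2 include Igf1r, nearly tied at 96.6 CPM at the highest in HepLPC and 97.3 CPM at the lowest in NPC_LPC. The members were chosen as a family and include genes of opposite direction, so the median describes no common shift. The chromosomes that carry tested members had median log2 fold changes between -0.07 and 0.14 over their genes. The values of the members less these medians kept their direction.

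The ligands and the other receptor were lower in HepLPC by value, without passing the test. Igf1, the growth factor gene for which the liver is known, had 12.7 and 20.0 CPM in HepLPC replicates 1 and 2, against 54.6 and 62.5 CPM in NPC_LPC replicates 1 and 2. The groups were well apart, with a log2 fold change of -1.84 (SE 0.33, edgeR adjusted p = 0.0763). Igfals, which encodes the acid-labile subunit, had 2 and 13 counts in HepLPC and none in NPC_LPC. Igf2r, which takes up IGF2 for degradation and carries lysosomal enzymes, had 246 and 252 CPM in HepLPC, against 643 and 620.3 CPM in NPC_LPC. Its groups were also well apart, at -1.34 on the log2 scale (SE 0.24), with the same edgeR adjusted p. DESeq2 called Igf1 and Igf2r lower in HepLPC, where it called 6.24% of the genes it tested as lower. Insrr, the gene of a related receptor, had at most 2 counts in a library. Igf2, chosen after its values were seen, had low counts, 5 and 5 in HepLPC against 31 and 19 in NPC_LPC (log2 fold change -2.21, SE 0.83, edgeR unadjusted p = 0.0397, adjusted p = 0.205). Ins1 and Ins2 had no count.

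**Figure D4:**
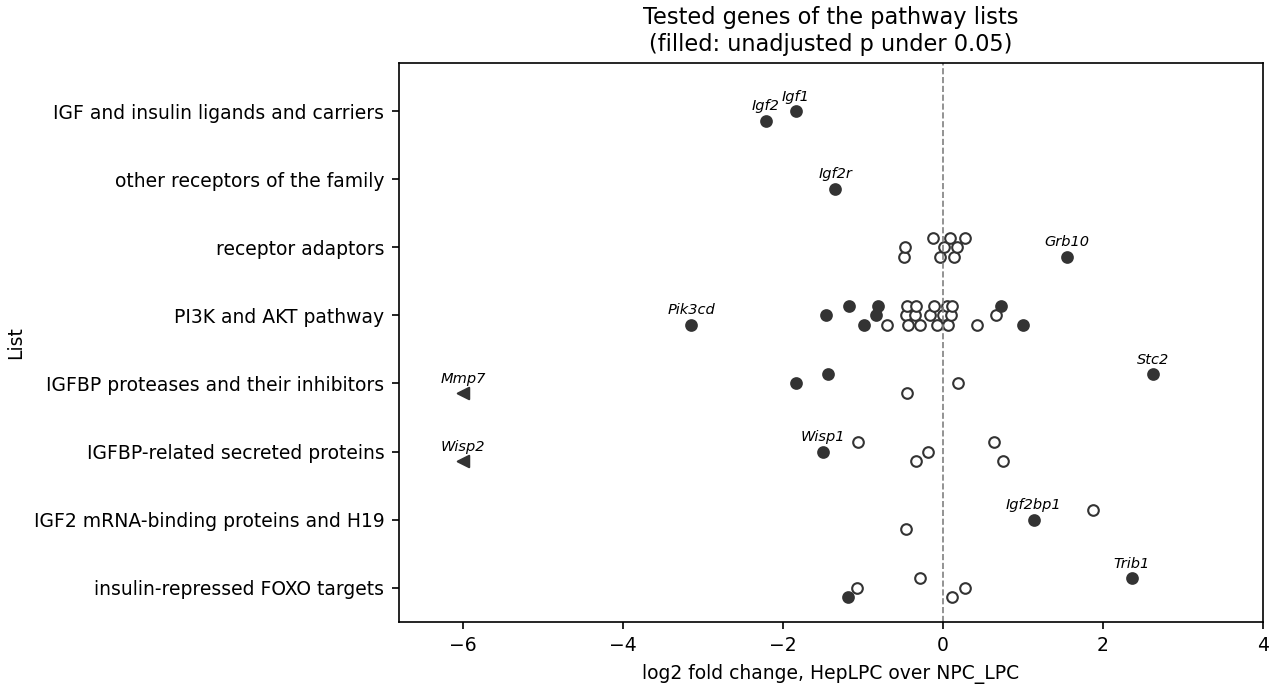
Log2 fold change of HepLPC over NPC_LPC for each tested gene of 8 lists of insulin and IGF pathway genes, with filled points for an unadjusted p under 0.05. Triangles at -6 mark genes with no count in HepLPC, and no gene of any list passed the edgeR test over all genes.

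Below the receptors no gene passed the edgeR test over all genes. Of 12 receptor adaptors, 10 were tested, with a median log2 fold change of 0.05, 6 above 0 and 4 below. DESeq2 called 1 of them, where it called 11.6% of the genes it tested. This was Grb10, an imprinted adaptor that dampens insulin and IGF signalling. Grb10 had 346 and 239 CPM in HepLPC replicates 1 and 2, against 124 and 75.1 CPM in NPC_LPC replicates 1 and 2, with an edgeR adjusted p of 0.099. Grb2, which links receptors to RAS, had 107 and 93.9 CPM in HepLPC, against 88.4 and 100.5 CPM in NPC_LPC. All 25 PI3K and AKT pathway genes were tested. Their log2 fold changes were positive in 9 and negative in 16, with a median of -0.28. At an unadjusted p under 0.05 there were 2 higher and 6 lower of the 25, where 10.4% and 11.5% of all tested genes were. The groups did not overlap in 2 with higher and 11 with lower values in HepLPC, where 27.9% and 28.6% of all tested genes did not. The kinase genes Akt1 and Gsk3a, the most abundant per length, had log2 fold changes of 0.00 (SE 0.29) and 0.06 (SE 0.25). DESeq2 called 1 of the 25 higher, Eif4ebp1, a translation repressor gene, where it called 5.35% of the genes it tested as higher. DESeq2 called 4 lower, among them the PI3-kinase subunit genes Pik3cd, Pik3r1 and Pik3r3, where it called 6.24% as lower.

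Proteases that cleave binding proteins, and their inhibitors, were represented by 8 genes, of which 6 were tested. Pappa, the protease gene for IGFBP4, had at most 2 counts in a library. Ctsd, which encodes the lysosomal protease cathepsin D, had 879.6 and 1209 CPM in HepLPC, against 1513 and 1337 CPM in NPC_LPC, and Htra1, a secreted serine protease gene, had 52.4 and 53.2 CPM in HepLPC, against 23.3 and 69.1 CPM in NPC_LPC. Neither passed edgeR or DESeq2. Stc1 and Stc2 encode stanniocalcins, inhibitors of PAPP-A, and lay on opposite sides by value. Stc2 had 21.9 and 6.42 CPM in HepLPC, against 3.84 and 0.743 CPM in NPC_LPC, and Stc1 had 25.0 and 9.41 CPM in HepLPC, against 37.1 and 55.8 CPM in NPC_LPC (edgeR adjusted p = 0.197 for each). Both were chosen after their values were seen. In this list edgeR called none of the 6, where it called 0.43% of all tested genes. DESeq2 called Stc2 higher and Adam12 lower, where it called 5.35% of the genes it tested as higher and 6.24% as lower.

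In a list of 8 genes known to be repressed by insulin or driven by FOXO factors, 6 were tested and edgeR called none. Pck1, the gluconeogenic enzyme gene, had no count, and G6pc had at most 2 counts. Trib1, best known for a pseudokinase that promotes degradation of C/EBP proteins, was the closest to the threshold at an edgeR adjusted p of 0.0504. It had 321 and 259 CPM in HepLPC replicates 1 and 2, against 65.9 and 47.0 CPM in NPC_LPC replicates 1 and 2, and DESeq2 called it higher. Sesn3, which encodes a stress-induced regulator of mTOR signalling, had 30.4 and 19.5 CPM in HepLPC, against 75.4 and 38.6 CPM in NPC_LPC (edgeR adjusted p = 0.191). The leading genes of the list thus lay in opposite directions.

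Other genes followed the pattern of Igfbp2 and Igfbp7, the members with the largest fitted change, across the 4 libraries. Likeness was the Euclidean distance between log2 CPM values (prior count of 2), each gene centred on its mean, among genes with a mean of at least 10 CPM. Closest to Igfbp2 were Disp2, Cobl and Sec16b, at distances of 0.268, 0.466 and 0.675. Cobl, an actin nucleator gene, had 67.2 and 50.9 CPM in HepLPC, against 2.08 and 2.13 CPM in NPC_LPC. The Igfbp2 profile in NPC_LPC is set by the prior count. Closest to Igfbp7 were Dixdc1, Lims2 and Fam214b, at distances of 0.274, 0.361 and 0.430. Lims2, which encodes an adaptor of focal adhesions, had 2.94 and 7.72 CPM in HepLPC, against 21.5 and 22.5 CPM in NPC_LPC.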

How the data were processed

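Poly(A)-selected, strand-preserving paired-end libraries were made from column-purified total RNA, per the labels' protocols. Trimmomatic, HISAT2, Cufflinks, HTSeq and DESeq with mm10 are named, per the submitters' processing notes, and their versions, the annotation and the strand setting are not stated there. The authors deposited whole-number read counts and FPKM (fragments scaled by transcript length and library size) per gene symbol, per the file headers. Counts carried all tests and FPKM the comparisons between genes.

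Genes were tested with edgeR 4.0.16 in R 4.3.3 (quasi-likelihood, TMM, filterByExpr, 12332 genes, group as the only term, two-sided, Benjamini-Hochberg over all tested genes). Standard errors were derived from the F statistic and intervals from its degrees of freedom. Alternatives were DESeq2 1.42.0, limma 3.58.1, other scalings and filters, the replicate number as a block and each library left out. The procedure was tested on simulated data. The labels do not say whether replicates are separate mice or cultures, so p-values measure only the spread between these libraries. Floors of 3 counts cover counting error only.

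The members, the lists and the rule for naming genes (all members, and of each list the genes past the threshold or otherwise the 2 most abundant per length, and the 3 genes most like each of 2 members) were chosen with earlier results of these data known. Positions, overlaps and promoter sequences come from RefSeq (GRCm38.p6) and GENCODE.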

Additional observations from a re-analysis of the deposited data

How the results depend on the processing

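No tested member changed direction under any alternative run. The number of members called was 0 in edgeR, 4 in DESeq2 and 1 without a filter on low counts, and 0 to 1 when a library was left out (1 without NPC_LPC replicate 1, Igfbp4). Over all genes edgeR called 53, against 1521 in DESeq2, 5 in limma-voom, 593 without a filter, 111 in limma on log2(FPKM + 1) with a mean FPKM of 0.5 as the minimum, 0 in the same test without a filter, 0 at a threshold of 0.01, and 0 to 377 when a library was left out (0 without either HepLPC library, 377 without NPC_LPC replicate 1 and 107 without NPC_LPC replicate 2). The lone sample left in an arm is then assumed to vary like the other group. With the replicate number as a block, edgeR called 136 genes and 0 members. Deviations of same-numbered libraries had a correlation of -0.0169 across genes. The labels do not say whether same-numbered libraries are paired, and with 2 libraries per group this correlation cannot decide it. Members at an unadjusted p under 0.05 were the same 4 (Igfbp2, Igfbp3, Igfbp4 and Igfbp7) in every setting that kept all 4 libraries. In the main setting 21.9% of all tested genes were under it. With a library left out, the set of members under it was not the same in every run. Without one library, the log2 ratio of Igfbp7 to Igfbp4 differed between the groups by -4.95 to -3.13. Depth limits Igfbp1 and Igfbp6. The cause was not tested.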

Other observations

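Among 9 genes of secreted proteins that share a domain with the IGF binding proteins, Ctgf, Cyr61, Crim1 and Wisp1 were readily detected in all 4 libraries. Nov, Kazald1 and Igfbpl1 had at most 1.11 CPM in any library, and Esm1 had no count. Of the 9 genes 7 were tested. Their median log2 fold change was -0.33 and edgeR called none. The list was chosen with earlier results known. Ctgf, a matricellular growth regulator gene, had 638 and 1322 CPM in HepLPC replicates 1 and 2, against 1137 and 2945 CPM in NPC_LPC replicates 1 and 2. Cyr61, its relative, had 453 and 594 CPM in HepLPC, against 208 and 1110.3 CPM in NPC_LPC. In both genes replicate 2 was above replicate 1 in each group, and the groups overlapped. Wisp1 and Wisp2, chosen after their values were seen, were lower in HepLPC without overlap, where 28.6% of all tested genes were. Wisp1 had 50.4 and 67.5 CPM in HepLPC, against 197 and 137 CPM in NPC_LPC (edgeR adjusted p = 0.0828). Wisp2 had no count in HepLPC and 1.81 and 18.9 CPM in NPC_LPC replicates 1 and 2. Wisp2 could enter the edgeR test only through NPC_LPC, so its direction was a condition of its being tested. DESeq2 called both genes lower in HepLPC, where it called 6.24% of the genes it tested as lower.

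The Igf2bp genes encode RNA-binding proteins of fetal tissues that bind Igf2 and other messenger RNAs, and all 3 were detected although Igf2 itself had low counts. Igf2bp2 had 192 and 116 CPM in HepLPC, against 201 and 222 CPM in NPC_LPC. Igf2bp3 had 57.5 and 68.7 CPM in HepLPC, against 31.1 and 3.42 CPM in NPC_LPC. Igf2bp1, which DESeq2 called higher in HepLPC, had 79.1 and 52.6 CPM in HepLPC, against 32.6 and 27.3 CPM in NPC_LPC (edgeR adjusted p = 0.125). No row was found under the symbol H19.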
